A study of Rattus norvegicus with 18 samples.

Results

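Sgk1, Scnn1a and Car2 are 3 kidney genes tied to salt and acid handling in the collecting duct, the last segment of the nephron, and are described here from a rat kidney array. They were chosen with earlier results of these data known, and were found by gene symbol in the array's annotation. Each symbol belonged to 1 of the 2304 spotted cDNA clones, of which 1489 had 1 gene symbol, and each clone was printed as 2 spots. The study compared total RNA of whole kidney from 6 sham-operated rats with that of 6 rats whose kidneys had been ischemic for 52 min and then reperfused, examined at 35 days (called ARF rats, for acute renal failure). Each sham rat was paired with an ARF rat (pairs A to F), each such pair went onto 2 arrays, between which the Cy3 and Cy5 dyes were exchanged, and 6 more arrays (R1 to R6) set sham rats against each other. Strain, sex and age are not given in the sources used here. The values are whole-kidney averages, so for every gene below fewer cells of a type and less RNA per cell cannot be told apart.

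In principal cells of the collecting duct, aldosterone binds the mineralocorticoid receptor and raises sodium uptake through the epithelial sodium channel, ENaC. Sgk1 encodes a serum- and glucocorticoid-regulated kinase that is an early aldosterone target; it phosphorylates the ubiquitin ligase Nedd4l, which otherwise removes ENaC from the membrane. Scnn1a encodes the alpha subunit of ENaC and is itself induced by aldosterone. Car2 encodes the cytosolic carbonic anhydrase that supplies protons and bicarbonate in intercalated cells and in the proximal tubule, and it is also abundant in red blood cells.

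Every value is a deposited normalized log ratio of ARF over sham. The log base is not stated, and the direction is likely rather than given: it follows from reading channel 2 over channel 1 on the arrays with sham in Cy3. The dye-swapped arrays correlated above 0 in 6 of 6 pairs (r from 0.196 to 0.58 over clones), so both orientations had been turned the same way. As a description, the dye effect seen in the pairs correlated above 0 over clones with each of the 6 sham-sham arrays read as channel 2 over channel 1 (r from 0.104 to 0.373). A more direct comparison, of the difference between 2 pairs with the array that set their sham rats against each other, gave r of 0.11 to 0.21 for R1 to R5 and -0.034 for R6. A single direction for all sham-sham arrays is therefore an assumption, and the labels state none. If the direction of ARF over sham were the opposite, every sign of a pair value would turn, while which genes share a sign would stay as given.

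Of 4608 spots, between 1586 and 2786 had a value on an ARF-sham array. A clone was tested if at least 4 pairs had it on both arrays, which held for 947 clones. Ribosomal protein genes, which every cell uses, had values on 92.2% of their spots on these arrays, against 46.1% of all spots. On the sham-sham arrays that share was 32.3% as deposited and 76.6% once adjacent equal blocks of rows were exchanged, so sham-sham values of named genes are given in the exchanged order. That order was chosen with the values known.

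Sgk1 had the highest log ratio of the 3 genes, at 0.42 ± 0.35 (SD, n = 5 pairs). Scnn1a averaged -0.22 ± 0.10 (n = 5) and Car2 -0.16 ± 0.26 (n = 5). None of the 3 passed the threshold of limma's moderated test (Benjamini-Hochberg adjusted p under 0.05 over all clones): the adjusted p was 0.13 for Sgk1, 0.14 for Scnn1a and 0.49 for Car2. Over all clones 9 of 947 passed (0.95%), 3 higher and 6 lower, and 8 higher and 7 lower passed when each array was centred on its median. At an unadjusted p under 0.05 in limma's fit across all clones, 2 of the 3 were called (Sgk1 and Scnn1a), against 139 of 947 clones (14.7%). As the 3 genes were chosen with earlier results of these data known, this count is no test of them as a set.

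Sgk1, the kinase, had pair values of 0.40 in pair A, -0.12 in C, 0.83 in D, 0.49 in E and 0.51 in F. Pair D was the highest, with values on 3 of its 4 spots, and pair C alone lay below 0. In D the spots with sham in Cy3 read 0.81 and 1.11, and the 1 spot with sham in Cy5 read 0.71. Sham in Cy3 gave array values of 0.32 for A, -0.32 for B, -0.11 for C, 0.96 for D, 0.55 for E and 0.64 for F. The dye-swapped arrays gave 0.47 for A, -0.14 for C, 0.71 for D, 0.43 for E and 0.39 for F. In each of these 5 pairs both arrays thus had the same sign. Pair B had a value on only 1 of its 4 spots (-0.32) and was left out of the mean. Its sign was opposite to that of A, D, E and F. The 95% confidence interval of the mean was 0.16 to 0.69, and 11 of the 947 tested clones had a higher mean. A log ratio of 0.42 is 1.34-fold in base 2, 1.52-fold in natural logs and 2.64-fold in base 10. Without pair C the mean was 0.56 and Sgk1 passed (limma, adjusted p = 0.025, n = 4). In that setting 19 of 891 clones passed, against 9 of 947 with all pairs. With the single spot of pair B kept, the mean was 0.30 ± 0.43 (n = 6, adjusted p = 0.41). Without pair D, the highest, the mean was 0.32. Leaving out pair C was the only alternative under which the kinase passed.

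Scnn1a, the channel subunit, was below 0 in every pair measured on both arrays. Its values were -0.19 in pair A, -0.39 in B, -0.12 in D, -0.17 in E and -0.21 in F. The spread was small beside that of other clones, with an SD of 0.10 against a median SD of 0.17. All 5 values had 1 sign, as in 24 of the 150 clones measured in 5 pairs (16%). The arrays with sham in Cy3 gave -0.25, -0.52, 0.085, -0.16, -0.17 and -0.16 for pairs A to F. With sham in Cy5 the values were -0.12, -0.27, -0.079, -0.18 and -0.26 for A, B, D, E and F. Pair C had only the first of these arrays, on which both spots were above 0 (0.074 and 0.096). It is the 1 pair that departs from the others, and with it kept the mean was -0.17 ± 0.15 (n = 6, adjusted p = 0.34). The confidence interval of the 5-pair mean was -0.36 to -0.074. In fold, -0.22 is 1.16-fold lower in base 2, 1.24-fold lower in natural logs and 1.65-fold lower in base 10.

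Car2, the carbonic anhydrase, had 0.30 in pair A and values below 0 in the other measured pairs: -0.30 in C, -0.34 in D, -0.17 in E and -0.27 in F. Pair A stood apart from the others, which lay close together. Pair B had no value on any of its 4 spots. The dye-swapped arrays differed in size from pair to pair. Sham in Cy3 gave -0.46 in C and -0.50 in D against -0.14 and -0.18 with sham in Cy5, while in E and F the order was turned, with -0.033 and -0.061 against -0.30 and -0.49. In pair A both arrays were above 0, at 0.22 and 0.38. The interval of the mean, -0.37 to 0.060, includes 0. Without pair A the mean was -0.27 (n = 4, adjusted p = 0.13), which moves the value by over 1.5 times without a call.

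**Figure D1:**
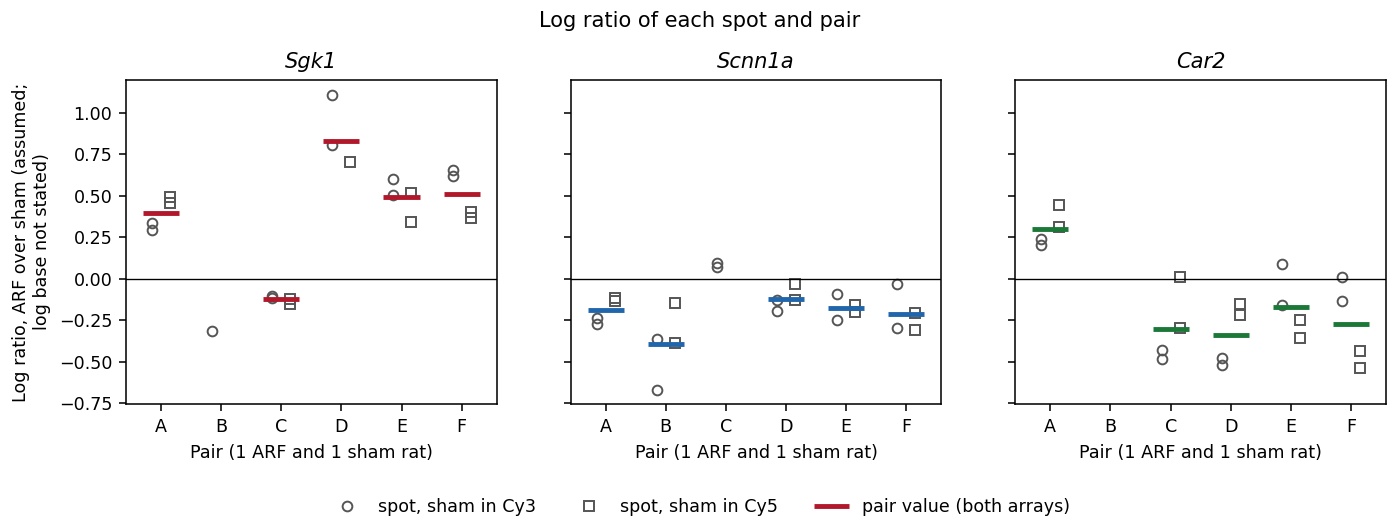
Log ratio of ARF over sham (assumed direction, log base not stated) for Sgk1, Scnn1a and Car2 in pairs A to F; circles are single spots of arrays labelled with sham in Cy3, squares those with sham in Cy5, and bars are the pair values over both arrays. Sgk1 is above 0 in A, D, E and F and reaches 0.83 in D, Scnn1a is below 0 in all 5 pairs with a bar, and Car2 is above 0 in A alone.

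The dye did not pass the threshold for any of the 3 genes. It did for 152 of 947 clones (16.1%), a share at which none of 3 would not be unusual. The dye effect (the Cy3-sham value less the Cy5-sham value, halved) was 0.050 ± 0.086 for Sgk1, -0.036 ± 0.065 for Scnn1a and -0.0089 ± 0.17 for Car2 (each n = 5; limma, adjusted p = 0.40, 0.50 and 0.93). Duplicate spots of a member differed by a median of 0.040 for Sgk1, 0.10 for Scnn1a and 0.10 for Car2, and by at most 0.31. Values were present on 20, 22 and 20 of the 24 spots of Sgk1, Scnn1a and Car2.

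The arrays of sham against sham compared the 3 genes between kidneys without the injury. Their signs follow which rat was in channel 2, so sizes are compared. These arrays have no dye-swapped partner, so a value also holds the dye effect and the error of 1 array, which the 2 arrays of a pair partly cancel. Sgk1 had small values between sham rats, with 0.020 on R1, -0.093 on R2, -0.0013 on R3, -0.29 on R4, -0.011 on R5 and 0.049 on R6. The values of R3 and R4 rest on 1 spot each, and that of R4 is the only one beyond 0.10. Scnn1a had larger values, at 0.0090, -0.46, -0.24, -0.31, -0.27 and 0.11 on R1 to R6. Car2 gave 0.064, -0.16, -0.044, 0.11, 0.44 and 0.18. Array R5, which set sham rat F against sham rat C, held its highest value.

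In mean size, Sgk1 had 0.47 over the ARF-sham pairs and 0.078 over the sham-sham arrays, a ratio of 6.03. Without R4 the sham-sham mean of Sgk1 was 0.035 and the ratio 13.5. Leaving out any other sham-sham array instead gave ratios from 5.04 to 6.27. Scnn1a had 0.22 and 0.23 (ratio 0.929), and Car2 0.28 and 0.17 (ratio 1.66). The median ratio over the 668 tested clones with at least 4 sham-sham values was 1.04, and 3 of those clones had a higher ratio than Sgk1. For Scnn1a the sizes on both kinds of array were thus alike. How much of a sham-sham value is a difference between rats was not tested: around a closed loop of 5 of these arrays, where differences between rats cancel, the values of Scnn1a added up to 0.51 and those of Car2 to 0.56, more than any single sham-sham value of these genes. For Sgk1 the sum was -0.13. The sham-sham arrays also share rats, so these ratios were not tested.

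**Figure D2:**
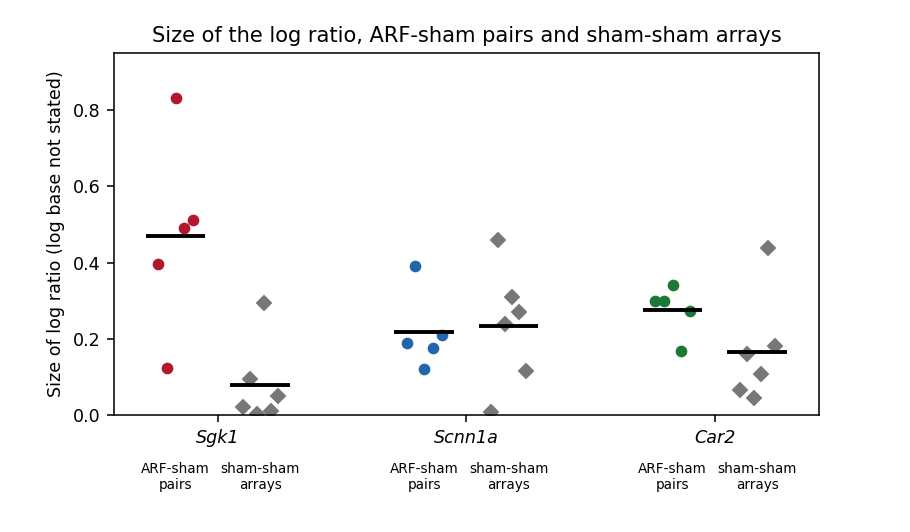
Size of the log ratio (sign removed, log base not stated) of Sgk1, Scnn1a and Car2 in 5 ARF-sham pairs each (coloured circles) and on 6 sham-sham arrays (grey diamonds), with black bars at the means. For Sgk1, 4 of 5 pairs lie above every sham-sham value, while for Scnn1a the means are 0.22 and 0.23 and the values overlap.

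The pairs were then used to ask whether the 3 genes differ from each other in the same rats, which does not depend on the assumed direction. Sgk1 exceeded Scnn1a by 0.59 in pair A, 0.95 in D, 0.67 in E and 0.72 in F, a mean difference in log ratio of 0.73 ± 0.16 (n = 4). The two-sided exact sign-flip permutation p was 0.125, the smallest that 4 pairs allow, and 0.19 after Benjamini-Hochberg adjustment over the 3 differences. With pairs on 1 array kept the difference was 0.47 ± 0.44 (n = 6, exact permutation p = 0.094), with 0.075 in pair B and -0.21 in pair C. Sgk1 exceeded Car2 in 5 of 5 pairs, by 0.097 in A, 0.18 in C, 1.17 in D, 0.66 in E and 0.79 in F. This mean difference was 0.58 ± 0.45 (exact permutation p = 0.0625, the smallest that 5 pairs allow, adjusted p = 0.19). Scnn1a and Car2 differed by -0.053 ± 0.31 (n = 4, exact permutation p = 0.88), with values from -0.49 in A to 0.22 in D. With 4 or 5 pairs this test cannot reach 0.05. The kinase lay above 0 and the channel subunit below it in the 4 pairs where both were measured on both arrays. In pair B both were below 0, and in pair C their order was turned, each with 1 of the genes read from a single array.

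Levels of single rats were fitted over all 18 arrays, with all sham-sham arrays read as channel 2 over channel 1. The levels and their test rest on that reading, under which the loop left the sums given above for Scnn1a and Car2. Relative to the sham mean, Sgk1 lay between -0.18 and 0.13 in the 6 sham rats. The ARF rats had 0.43 in A, -0.23 in B, -0.020 in C, 0.66 in D, 0.35 in E and 0.56 in F. Thus 4 of 6 ARF rats were above the highest sham rat, and ARF rat B, read from 1 spot, was below the lowest. Scnn1a lay between -0.27 and 0.26 in sham rats and between -0.41 and 0.38 in ARF rats, and Car2 between -0.35 and 0.14 and between -0.65 and 0.44 (5 ARF rats). The ranges of sham and ARF rats overlap for all 3 genes. For Scnn1a 3 ARF rats were below the lowest sham rat and 1 was above the highest. Of those below, rat B was at -0.27, as the lowest sham rat was. For Car2 1 ARF rat was below and 1 above. Tested without the pairing, none of the 3 passed (limma, adjusted p = 0.80 for Sgk1 and 0.96 for the others).

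The aldosterone, ENaC and SGK1 pathway was read from a list of 42 genes that includes Sgk1 and Scnn1a. Of these, 15 were on the array and 12 were tested. None passed the threshold in either direction, and 3 had an unadjusted limma p under 0.05 (Sgk1, Scnn1a and Agt). Of these, Sgk1 and Scnn1a had been chosen with earlier results known. The share over all tested clones was 14.7%, which also stands beside the counts of the lists below. The list had 8 means above 0 and 4 below, with a median of 0.047, and over all tested clones 54.1% of means were above 0 with a median of 0.015. Sgk1 had the highest mean of the list and Scnn1a the lowest.

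Upstream of the kinase, Agt, the precursor of angiotensin, had 0.19 ± 0.20 (n = 6, limma, adjusted p = 0.28). It had 0.43 in pair B and 0.46 in D, and 0.036 to 0.098 elsewhere. Hsd11b2, the enzyme that keeps glucocorticoids from the mineralocorticoid receptor, had -0.052 ± 0.14 (n = 6), with pairs A to C below 0 and D to F above. Pdpk1, the kinase that activates SGK1, had 0.030 ± 0.22 (n = 5). The mineralocorticoid receptor Nr3c2 had no pair measured on both arrays, and the glucocorticoid receptor Nr3c1 had 3 (0.20 in A, -0.30 in E and -0.24 in F) and was not tested. Scnn1b, Scnn1g, Nedd4l and Tsc22d3 were not analysed here.

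Among targets of the pathway, the thiazide-sensitive cotransporter Slc12a3 had 0.12 ± 0.27 (n = 5), from -0.21 in A to 0.38 in C. On the sham-sham arrays Slc12a3 had a mean size of 0.69 (n = 5), with every value below 0, from -1.41 to -0.10. How much of this is a difference between rats was not tested. Furin, a protease that cleaves ENaC subunits, had 0.012 ± 0.21 (n = 6). The 14-3-3 proteins Ywhab and Ywhae, of a family that holds phosphorylated Nedd4l, had 0.094 ± 0.15 (n = 6) and 0.064 ± 0.093 (n = 4). Fxyd4, a corticosteroid-induced regulator of the sodium pump in the collecting duct, had 0.16 ± 0.31 (n = 6). It was 0.40 in B, 0.44 in E and 0.46 in F but -0.27 in D, where Sgk1 was highest. Stk39, a kinase that acts on salt cotransporters, had no pair with both arrays.

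The sodium pump, which drives sodium out of the cell on the blood side, had 4 of 10 listed genes tested, with 1 mean above 0 and 3 below, a median of -0.12 and none past the threshold (1 at an unadjusted limma p under 0.05, Atp1b3). Its subunit Atp1b1 had 0.42 in pair A, -0.18 in B, -0.43 in C, -0.28 in D, -0.32 in E and -0.23 in F. Car2 also was above 0 in pair A alone. Atp1b3, another beta subunit, had -0.22 ± 0.16 (n = 6), from -0.45 in C to -0.020 in A (limma, adjusted p = 0.15). Fxyd2, the gamma subunit, had -0.066 ± 0.12 (n = 6). Fxyd1, a pump regulator of muscle, had 2 pairs and was not tested.

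Principal cells of the collecting duct were followed with a list of 25 genes, of which 9 were on the array and 7 tested, 3 with means above 0 and 4 below (median -0.052). None passed, and 2 had an unadjusted limma p under 0.05 (Scnn1a and St6gal1). Aqp3, the water channel on the blood side of these cells, had 0.055 ± 0.32 (n = 6), from -0.48 in C to 0.40 in F. The sialyltransferase St6gal1 had -0.38 ± 0.21 (n = 6), from -0.56 in F to -0.063 in B (limma, adjusted p = 0.0502). Akr1b1, the aldose reductase that makes the osmolyte sorbitol in the renal medulla, spread most in the list, at 0.59 in A, -0.39 in C, -1.03 in D, 0.89 in E and 0.70 in F. Its mean was 0.15 ± 0.83 (n = 5), and its mean size on the sham-sham arrays was 0.67. Ptger1, a prostaglandin receptor, had no pair with both arrays, and Aqp2 was not analysed here.

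Acid secretion was covered by 29 genes of intercalated cells, 6 of them on the array and 5 tested. Apart from Car2 these were subunits of the vacuolar proton pump. Atp6v0a1 had 0.11 ± 0.17 (n = 5), Atp6v0c -0.014 ± 0.092 (n = 6), Atp6v1f -0.10 ± 0.13 (n = 5) and the accessory subunit Atp6ap1 -0.015 ± 0.17 (n = 6). None passed or had an unadjusted limma p under 0.05, and their means lay nearer to 0 than that of Car2. Of 29 genes of carbonic anhydrases and bicarbonate transport, 3 were tested, all with means below 0 (median -0.14) and none past the threshold or at an unadjusted limma p under 0.05. The sodium bicarbonate cotransporter Slc4a4 of the proximal tubule had -0.14 ± 0.18 (n = 4), from -0.39 in B to -0.0050 in F. Glud1, a mitochondrial enzyme of ammonia formation, had -0.026 ± 0.12 (n = 6). The chloride-bicarbonate exchanger Slc4a1 of intercalated and red cells was measured in 2 pairs (-0.066 in A and 0.067 in E).

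**Figure D3:**
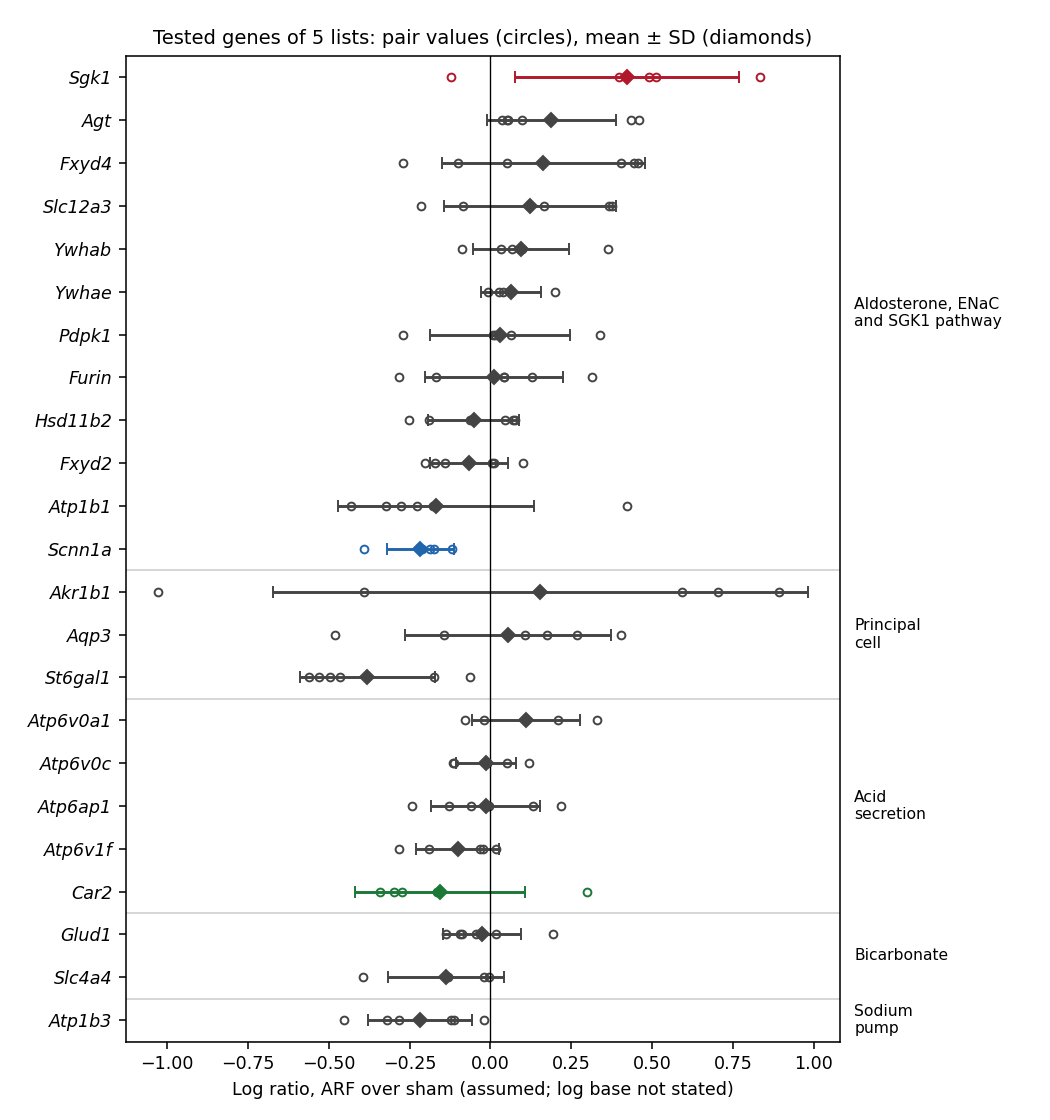
Log ratio of ARF over sham (assumed direction, log base not stated) for each tested gene of 5 gene lists; circles are pair values and diamonds with bars the mean ± SD, and a gene on several lists is drawn once, in the first. Sgk1 (red) has the highest mean, 0.42, Scnn1a (blue) has -0.22 with a narrow spread, Car2 (green) has -0.16 with pair A apart, and Akr1b1 spreads from -1.03 to 0.89.

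Genes that share inducers with Sgk1 were followed with a list of 30 glucocorticoid-responsive and immediate response genes, of which 8 were on the array and 4 tested. Their means lay between -0.034 and 0.0096, with none past the threshold or at an unadjusted limma p under 0.05. The metallothionein Mt2A, induced by glucocorticoids and metals, had -0.0057 ± 0.29, and the stress gene Gadd45a 0.0096 ± 0.26 (each n = 6). Ccn2, a growth factor of fibrosis, had -0.034 ± 0.45, from -0.76 in C to 0.63 in A. None of the 4 had a value above 0.10 in pair D, where Sgk1 had 0.83.

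Markers of other cells were read in the same pairs. Injured tubule markers (6 of 11 tested, all 6 with means above 0, none past the threshold, 2 at an unadjusted limma p under 0.05) had a median of 0.81 in pair A, 0.22 in B, -0.58 in C, 0.026 in D, 0.45 in E and 0.61 in F. Sgk1 was below 0 in C, as they were, and above 0 in A, E and F. In D, where it had its highest value, they went both ways (Tmsb10 0.31, Vim 0.17 and Cd24 -0.23). In B their median was above 0, while its single spot was below. Smooth muscle and fibroblast markers (6 of 13 tested, all 6 with means above 0, 2 past the threshold, S100a4 and Col1a1, and 5 at an unadjusted limma p under 0.05) had 0.66, 0.19, -0.031, 0.020, 0.43 and 0.53 in pairs A to F. Their part in the value of Sgk1 was not tested. Thick limb and distal tubule markers (6 of 12 tested, 1 past the threshold, Egf, and 4 at an unadjusted limma p under 0.05) had 4 means below 0 and 2 above, the latter Pvalb and Slc12a3 with 0.12 each. Their medians were below 0 in every pair, from -0.46 in F to -0.089 in C. Of 7 tested proximal tubule markers, 5 had means below 0 (list median -0.16), none passed and 3 had an unadjusted limma p under 0.05. Their part in the values of Scnn1a and Car2 was not tested. Of the red cell markers, 5 of 11 were on the array and none could be tested, as Hba-a1, Hbb and Hbb-b1 had no pair with both arrays.

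Likeness between genes was measured as the root mean square difference of pair values over the pairs of each member. The nearest genes were picked by these values, so a high or low pair shared with the member is favoured by the choice. For Car2 (pairs A and C to F) the nearest of 447 named clones was Dbi, the acyl-CoA-binding protein, at 0.048, with 0.24, -0.30, -0.37, -0.11 and -0.21 in these pairs. Ppp1cb, a catalytic subunit of protein phosphatase 1, followed at 0.083 and the glucose transporter Slc2a4 at 0.088, and both had their only value above 0 in pair A (0.37 and 0.31). The median over all candidates was 0.33. For Scnn1a (pairs A, B and D to F) the nearest of 468 were Amacr, a racemase of branched fatty acid breakdown, at 0.066, the glucose-6-phosphatase G6pc1 at 0.082 and the aspartate transaminase Got1 at 0.087, against a median of 0.28. All 3 were lowest in pair B, as Scnn1a was. Outside these pairs G6pc1 had 0.64 in pair C, where Scnn1a had 0.085 on its single array.

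For Sgk1 the nearest clones were farther away. They were the G protein subunit Gnai2 at 0.26, the ribosomal protein Rpl15 at 0.28 and the ribosome-associated scaffold Rack1 at 0.29, against a median of 0.56 over 447 candidates. Gnai2 had 0.34 in A, -0.068 in C, 0.36 in D, 0.25 in E and 0.32 in F. Of these it was lowest in C and highest in D, as Sgk1 was, which the choice by these values favours. In pair B, which did not enter, Gnai2 had 0.21 where the single spot of Sgk1 had -0.32.

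**Figure D4:**
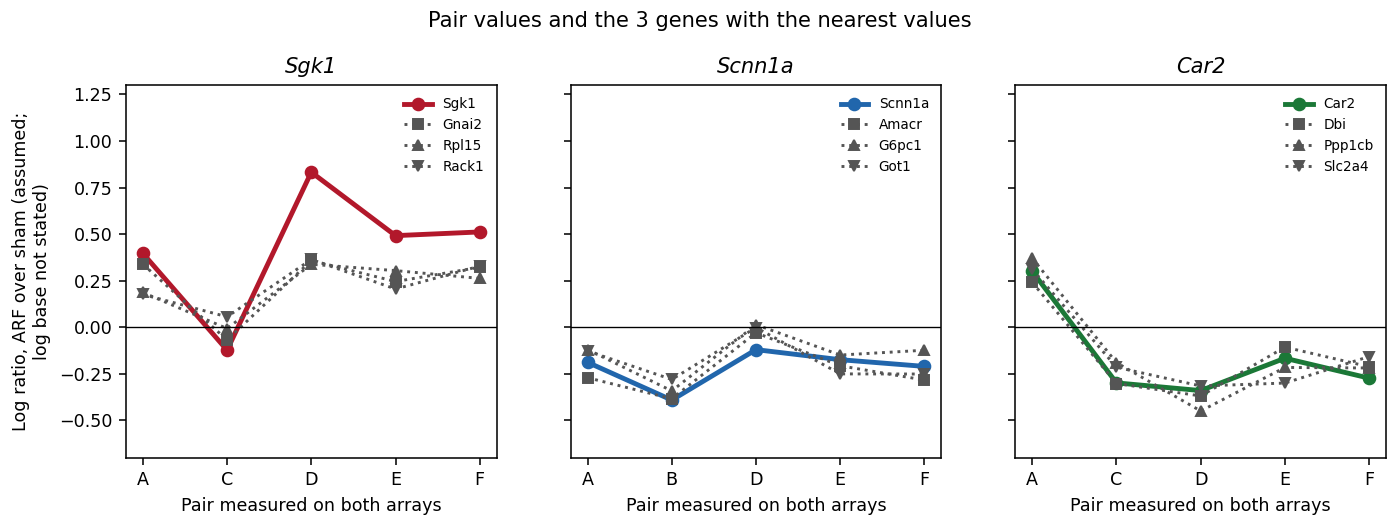
Pair values (log ratio of ARF over sham, assumed direction, log base not stated) of each gene (thick coloured line) and of the 3 named genes with the smallest root mean square difference from it (dotted grey lines); lines join the pairs of 1 gene, and the pairs have no order. The genes nearest to Car2 have root mean square differences of up to 0.088 from it and are also above 0 in pair A, while those nearest to Sgk1 stay below it in A, D, E and F. All were picked by the values drawn.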

How the data were processed

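The data are one table of normalized log values deposited by the authors for 18 two-colour cDNA arrays; per the labels' descriptions, the raw data came from ImaGene 4.1 and spot quality, detection and weak signals were handled by a cited earlier method. Log base, direction and the normalization step are not given in the sources used here. Each array has a mean of 0, and 57.1% of cells are empty. Array medians lay between -0.042 and 0.029. The members and lists were chosen with earlier results of these data known. Rows 1152 apart were read as duplicate spots and averaged, then the 2 arrays of a pair, which hold the same RNAs. Pair values were tested against 0 with limma 3.58.1 (R 4.3.3; eBayes; Benjamini-Hochberg over all 947 clones that at least 4 pairs held on both arrays; 95% confidence intervals; threshold 0.05), and the same was done for dye effects. The procedure was tested on simulated data. The pairing comes from the labels. Precision is limited by the number of pairs of rats. Nothing says which rats were handled together, so no batch was tested. Differences between members used exact sign-flip tests over pairs. Gene symbols are those of the platform annotation, brought up to date with RefSeq gene identifiers (GRCr8; 1483 of 1489 clones with 1 symbol matched). Named genes are the 3 members, other measured genes of the pathway, principal cell, acid secretion, bicarbonate and sodium pump lists, genes of other lists past the threshold, and the 3 nearest clones of each member. Other genes named from the remaining lists, and the array comparison of ribosomal protein genes, were chosen after their values were seen. Alternatives covered spots, dye orientation, pairs on 1 array, centring, filter, moderation, pairing and each pair left out.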

Additional observations from a re-analysis of the deposited data

Results flagged for a closer look

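Pair A stood apart from the other pairs in both genes where 1 pair lay far from the rest. Car2 had 0.30 in pair A, with the other 4 pairs between -0.34 and -0.17. Atp1b1 had 0.42 in pair A, with the other 5 pairs between -0.43 and -0.18. These were the only ones of 35 groups of values examined in this way. About 1 in 20 groups would show such a gap by chance.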

How the results depend on the processing

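Sgk1, Scnn1a and Car2 kept the sign of their mean under all 16 alternatives run for each. Their means ranged from 0.29 to 0.56, from -0.26 to -0.16 and from -0.27 to -0.11. Some alternatives could not change a mean: those that altered only the test, and leaving out a pair that had not entered it. Only Sgk1 passed the threshold, and only without pair C (0.56); leaving out each pair in turn, its mean was 0.32 to 0.56. Sgk1 minus Scnn1a and Sgk1 minus Car2 stayed above 0 under the 12 alternatives run for each. Of these, centring cancels in a difference, and leaving out a pair that had not entered a difference could not change it. Scnn1a minus Car2 turned to 0.032 with only sham in Cy3 and 0.034 with pairs on 1 array kept, and ranged from -0.14 to 0.092 with each pair left out; the cause was not tested. The dye effects did not pass under any of the 8 alternatives run for each. The 9 clones past the threshold (3 higher, 6 lower) became 15 with the second spot, 28 with only sham in Cy3 (17 higher, 11 lower), 5 with pairs on 1 array kept, 15 with median centring (8 higher, 7 lower), and 0 to 19 with each pair left out (0 without pair E or F, with 68 and 59 at an unadjusted p under 0.05, and 19 without C). They became 0 with limma's trend and robust options (119 unadjusted), 2 with no replicate block on rat levels and 29 with the pair as a random replicate block; the cause was not tested. With each sham-sham array left out in turn, chosen after seeing the data, the mean size of Sgk1 was 0.035 to 0.094, of Scnn1a 0.19 to 0.28 and of Car2 0.11 to 0.19. In the random-block fit the 2 arrays of a pair correlated at 0.51. No member was measured in all 6 pairs, so that filter gave the members no value, and as deposited their rows on the sham-sham arrays are empty.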
